A study of Homo sapiens with 36 samples.

Results

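UGT2B7, UGT2B10, UGT2B11, UGT2B15, UGT2B17 and UGT2B28 belong to the UDP-glucuronosyltransferase 2B family. These 6 genes, of 29872 in the deposited table, were chosen by family name with their values against vehicle already known, since UGT2B11 and UGT2B28 had been among the genes furthest below vehicle. All 6 were found in the table by Ensembl identifier. They were followed in LNCaP, a cell line long established from human prostate cancer. The cells received vehicle, or AU2-94 or atirmociclib at 1 or 2 µM, or 2 µM ribociclib, an inhibitor of the cell-cycle kinases CDK4 and CDK6. AU2-94 and atirmociclib are described by the authors as selective inhibitors of CDK4. In their kinase assays atirmociclib was more potent than AU2-94 against CDK1, CDK2, CDK6, CDK7 and CDK9. RNA was taken after 24 h or 72 h in 3 biological replicates per group, which made 36 libraries in 12 groups. In the labels the vehicle groups carry a dose of 2 µM as well. Wells for 72 h were seeded more thinly than those for 24 h, so time and seeding density cannot be told apart. All groups are 1 cell line grown in culture, without a host or neighbouring stroma.

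UGT2B enzymes sit in the endoplasmic reticulum and join glucuronic acid, taken from UDP-glucuronic acid, to steroids, bile acids and drugs, which makes them water soluble and ready for export. In prostate cells UGT2B15 and UGT2B17 are known for inactivating dihydrotestosterone and its metabolites, and androgen is known to lower both transcripts in LNCaP. UGT2B28 and UGT2B11 are close relatives with steroid or fatty acid substrates described, UGT2B10 is known mainly for N-glucuronides of amines, and UGT2B7 is a broad liver enzyme that conjugates opioids and steroids.

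These 6 genes lie in 1 stretch of chromosome 4 (GRCh38, GENCODE release 44), over 0.758 megabases from 68537173 to 69295050. UGT2B17 (ENSG00000197888, 68537173 to 68576413), UGT2B15 (ENSG00000196620, 68646597 to 68670652) and UGT2B11 (ENSG00000213759, 69199951 to 69214748) are on the minus strand. UGT2B10 (ENSG00000109181, 68815994 to 68832023), UGT2B7 (ENSG00000171234, 69051363 to 69112987) and UGT2B28 (ENSG00000135226, 69280475 to 69295050) are on the plus strand. The stretch holds 29 other annotated genes, mostly pseudogenes. Of these, 3 are in the table, and none reached 10 normalised counts in any library.

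The coding sequences show how alike the members are, which bears on how reads were divided between them. The 60 bases below are the stretch of the aligned coding sequence, within 1 exon, in which the most positions, 29 of them, differ among the 6 genes. Capitals mark bases that are unlike UGT2B11 in the same place. The stretches are in coding exons, with UGT2B7 at chr4:69096837-69096896 (plus strand), UGT2B10 at chr4:68816333-68816392 (plus strand), UGT2B11 at chr4:69214347-69214406 (minus strand), UGT2B15 at chr4:68670240-68670299 (minus strand), UGT2B17 at chr4:68568106-68568165 (minus strand), UGT2B28 at chr4:69280817-69280876 (plus strand), and each is written 5′ to 3′ on the strand of its gene.
UGT2B7: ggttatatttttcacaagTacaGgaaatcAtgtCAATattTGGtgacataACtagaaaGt
UGT2B10: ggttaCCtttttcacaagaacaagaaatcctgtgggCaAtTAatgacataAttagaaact
UGT2B11: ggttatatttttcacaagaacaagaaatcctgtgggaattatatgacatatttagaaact
UGT2B15: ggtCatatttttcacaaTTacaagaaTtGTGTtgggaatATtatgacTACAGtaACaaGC
UGT2B17: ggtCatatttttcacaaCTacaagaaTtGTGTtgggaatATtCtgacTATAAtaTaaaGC
UGT2B28: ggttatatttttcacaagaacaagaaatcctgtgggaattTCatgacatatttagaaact
UGT2B28 differs from UGT2B11 at 2 of these bases, whereas UGT2B15 and UGT2B17 each differ at 19.

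The stretch that varies least shows the other extreme. Only 3 positions of 60 differ among the 6 genes, and UGT2B10, UGT2B11 and UGT2B28 are identical there. The coordinates are UGT2B7 at chr4:69108119-69108178 (plus strand), UGT2B10 at chr4:68827345-68827404 (plus strand), UGT2B11 at chr4:69204574-69204633 (minus strand), UGT2B15 at chr4:68654181-68654240 (minus strand), UGT2B17 at chr4:68550821-68550880 (minus strand), UGT2B28 at chr4:69290608-69290667 (plus strand).
UGT2B7: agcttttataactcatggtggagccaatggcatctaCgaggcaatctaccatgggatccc
UGT2B10: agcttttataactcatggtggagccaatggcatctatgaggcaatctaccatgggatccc
UGT2B11: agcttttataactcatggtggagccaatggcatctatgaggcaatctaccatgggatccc
UGT2B15: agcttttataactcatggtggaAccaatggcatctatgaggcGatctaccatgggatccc
UGT2B17: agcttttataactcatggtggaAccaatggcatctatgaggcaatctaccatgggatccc
UGT2B28: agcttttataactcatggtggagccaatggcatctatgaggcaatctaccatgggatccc
Over the whole coding sequence, UGT2B11 and UGT2B28 were 97.0% identical, UGT2B15 and UGT2B17 96.5%, and UGT2B10 and UGT2B11 95.02%. UGT2B15 or UGT2B17 against UGT2B10, UGT2B11 or UGT2B28 gave 83.9% to 85.4%. Of the 100-base windows of its reference transcript, UGT2B15 shared 12.4% letter for letter with another annotated transcript and UGT2B17 10.6%, in each case 252 windows in common with the other of the pair. The shares were 9.22% for UGT2B11, 5.63% for UGT2B28 and 4.55% for UGT2B10, with other members or pseudogenes, and 0% for UGT2B7. How reads from shared stretches were assigned is not given in the sources used here, so the split between UGT2B15 and UGT2B17 is less certain than their sum. For UGT2B10, UGT2B11 and UGT2B28 both the split and the sum are uncertain, since they also share windows with pseudogenes. UGT2B11, for example, shared 129 windows with the pseudogene UGT2B25P, 50 with UGT2B10 and 17 with UGT2B28. UGT2B11 also overlaps the exons of a long non-coding RNA on the opposite strand over 435 bases, 18.5% of its exons.

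Upstream sequence is shown because the members moved together. The RefSeq promoter table (GRCh38.p14) holds 4 of the 6 genes, and the 250 bases before the start are printed for UGT2B10 (chr4:68815744-68815993, plus strand), UGT2B11 (chr4:69214749-69214998, minus strand) and UGT2B15 (chr4:68670653-68670902, minus strand). Capitals mark the nuclear receptor hexamer AGGTCA and the forkhead motif GTAAACA, both searched on both strands.
UGT2B10: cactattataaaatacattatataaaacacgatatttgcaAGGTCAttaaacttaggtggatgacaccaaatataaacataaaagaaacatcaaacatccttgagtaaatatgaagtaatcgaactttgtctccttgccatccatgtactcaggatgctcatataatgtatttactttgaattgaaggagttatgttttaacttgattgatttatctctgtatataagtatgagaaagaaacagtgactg
UGT2B11: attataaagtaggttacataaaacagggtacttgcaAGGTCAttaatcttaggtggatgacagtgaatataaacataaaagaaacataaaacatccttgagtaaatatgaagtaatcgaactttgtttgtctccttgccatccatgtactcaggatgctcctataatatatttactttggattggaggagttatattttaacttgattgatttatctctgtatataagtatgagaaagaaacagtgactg
UGT2B15: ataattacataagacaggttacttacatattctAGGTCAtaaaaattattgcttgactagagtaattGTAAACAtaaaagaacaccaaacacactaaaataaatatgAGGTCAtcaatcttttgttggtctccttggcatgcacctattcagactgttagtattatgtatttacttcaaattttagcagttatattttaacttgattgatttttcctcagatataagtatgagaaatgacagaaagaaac
In the full 300-base windows, AGGTCA was found in UGT2B10 and UGT2B11 once each and in UGT2B15 at 2 places, and 13.8% of all 35116 promoters held it. GTAAACA was found in UGT2B15 alone among these 4 genes, and 3.42% of all promoters held it. The E2F motifs TTTCCCGC and TTTGGCGC were found in none of the 4 windows, against 1.63% and 0.652% of all promoters. The cell-cycle CHR motif TTTGAA was found in UGT2B10 and UGT2B15 and in 15.2% of all promoters, and the TATA motif TATAAA in UGT2B10 and UGT2B11 and in 11.5%. The matches in capitals do not overlap. A match describes these letters only. The 4 windows were 30.3% to 35.0% G and C, against a median of 58.7%.

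The libraries were much alike in size, with summed normalised counts of 20675156 to 22692555 and 19708 to 21405 genes above 0. All 10 LNCaP and luminal prostate markers were expressed, with a summed level of 116817 to 123666 normalised counts in vehicle and 156786 to 201854 in treated libraries. Of the 6 hepatocyte markers, which matter because the liver is rich in UGT2B enzymes, TTR alone had a mean of at least 10 normalised counts, and ALB reached no more than 21.7. The list summed to 29.4 to 53.6 in vehicle and 15.2 to 65.1 in treated libraries. Basal markers summed to 4.35 to 25.2 in vehicle and 23.2 to 88.6 in treated libraries, almost all of it KRT14, with 1 of 3 markers at a mean of at least 10, KRT5 at no more than 1.01 and TP63 at no more than 4.04. Neuroendocrine markers, of which 1 of 5 had such a mean, summed to 13.98 to 36 normalised counts in vehicle and 6.61 to 32.8 in treated libraries. The stroma, endothelium and blood list summed to 389 to 642 in vehicle and 196 to 646 in treated libraries, nearly all of it COL1A1, while the other 3 markers, COL1A2, PECAM1 and PTPRC stayed at or under 7.09. The part of these markers in the UGT2B values was not tested.

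In untreated cells UGT2B15 and UGT2B17 were the main UGT2B transcripts, with UGT2B11 next. Per kilobase of annotated exon, vehicle at 24 h held 1479 ± 112 normalised counts of UGT2B15 and 1333 ± 38.7 of UGT2B17 (SD, n = 3), and the libraries of the pair overlapped. UGT2B11 followed with 584 ± 75.1, UGT2B28 with 141 ± 22.1, UGT2B10 with 91.0 ± 8.24 and UGT2B7 with 2.24 ± 0.799 normalised counts per kilobase. At 72 h in vehicle, UGT2B17 stood at 1539 ± 97.8 and UGT2B15 at 1462 ± 101 per kilobase, again with overlapping libraries. The other 4 kept the same order, and no other neighbours overlapped in either vehicle group. In treated libraries UGT2B17 came before UGT2B15 in all 10 groups, with overlapping libraries only for ribociclib at 72 h. UGT2B28 stood behind UGT2B10 at 24 h in all 5 treatments, with overlap for AU2-94 at 2 µM, atirmociclib at 1 µM and ribociclib. UGT2B28 stood ahead of UGT2B10 again at 72 h in all 5 treatments, without overlap.

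Every treatment lay far below vehicle for the 5 members that could be fitted. These differences chose the members, so they are described without a test. On the log2 scale (normalised count + 1), 49 of the 50 values (5 genes, 5 treatments, 2 harvests) were at or below -1, and the exception was UGT2B10 under atirmociclib at 2 µM for 72 h (-0.89, SE 0.21). For the whole table the share of genes at or below -1 at 24 h was 3.68% for AU2-94 at 1 µM, 4.13% for AU2-94 at 2 µM, 5.6% for atirmociclib at 1 µM, 6.49% for atirmociclib at 2 µM and 5.16% for ribociclib, of 16137 genes. At 72 h these shares were 1.52%, 1.51%, 3.5%, 4.66% and 2.58%, of 16341 genes. In bulk RNA, fewer cells that express a gene and less RNA per cell cannot be told apart.

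**Figure D1:**
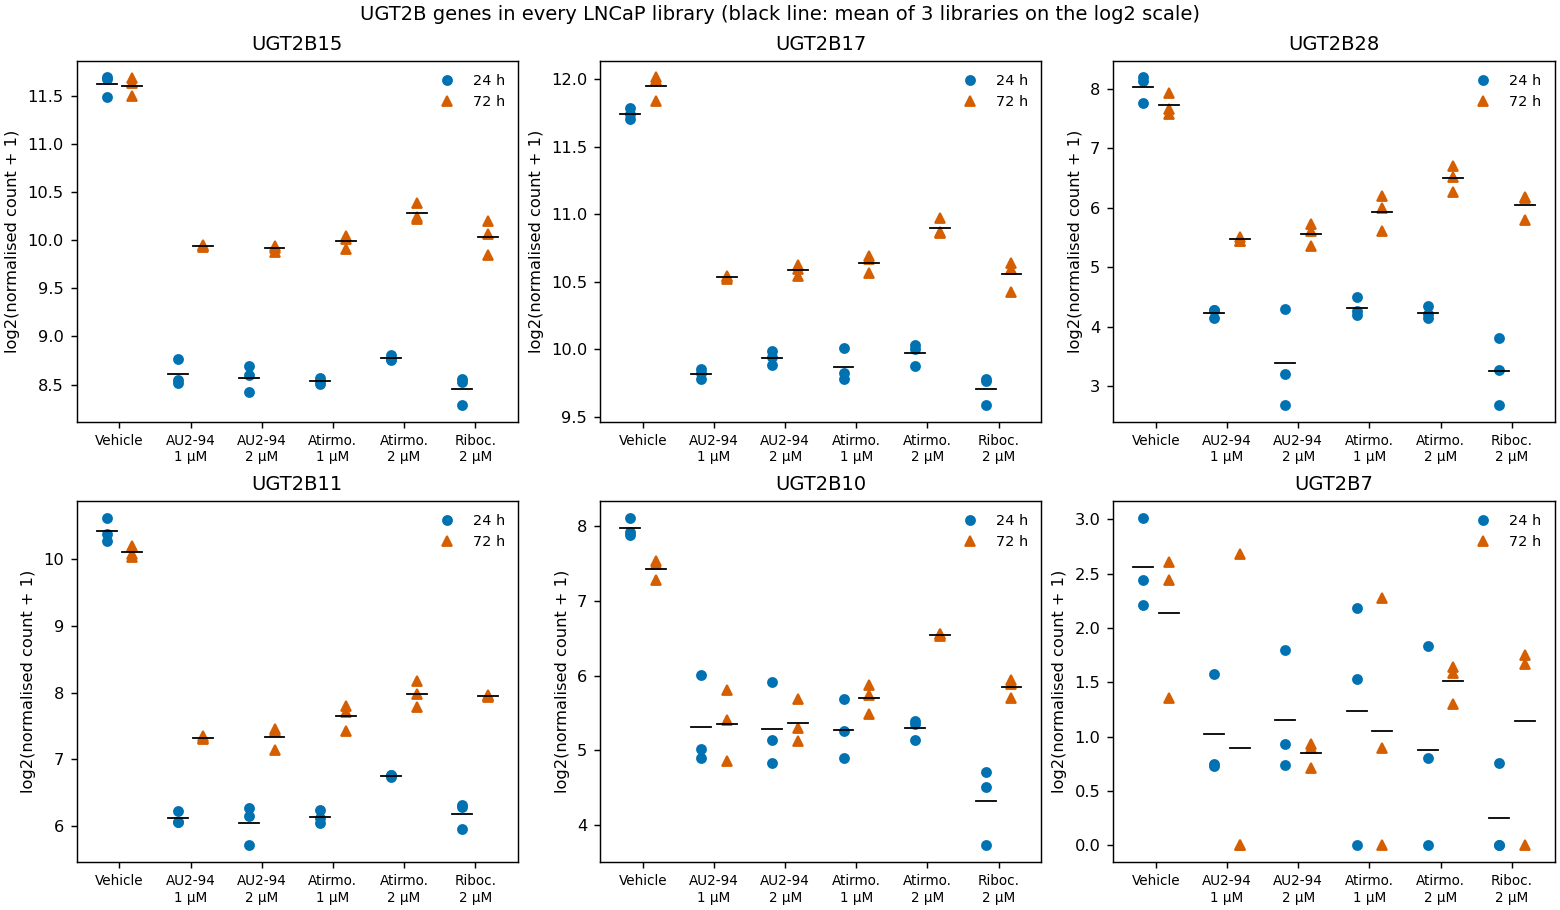
Log2(normalised count + 1) of each UGT2B gene (y axis, a separate range in each panel) in the 36 libraries by treatment (x axis). Circles are 24 h, triangles 72 h and black lines the mean of 3 libraries. For UGT2B10, UGT2B11, UGT2B15, UGT2B17 and UGT2B28 every treated library lies below every vehicle library of its harvest, and for UGT2B7 all values are low.

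UGT2B15, which conjugates dihydrotestosterone and androstanediol, had 3308, 3278 and 2881 normalised counts in the vehicle libraries at 24 h. The 15 treated libraries of that harvest ranged from 311 through a median of 376 to 449. All 15 were thus below all 3 vehicle libraries, and the group means were 11.2% to 13.9% of the vehicle mean. At 72 h the vehicle libraries had 2886, 3308 and 3168 normalised counts and the treated libraries 919, 991 (median) and 1343. The treated means had come up to 30.9% to 39.9% of vehicle. The log2 differences from vehicle were -3.16 to -2.84 (SE 0.09) at the first harvest and -1.69 to -1.32 (SE 0.08) at the second.

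UGT2B17, the closest relative of UGT2B15, which also takes testosterone, was nearest to vehicle of the 5 at 24 h. The vehicle libraries had 3421, 3533 and 3334 normalised counts at 24 h, and the treated libraries 768, 923 (median) and 1047. At 72 h vehicle had 3669, 4133 and 4070 and the treated libraries 1377, 1549 (median) and 2007. No treated library reached a vehicle library at either harvest. The treated means were 24.4% to 29.3% of vehicle at 24 h and 37.4% to 48.3% at 72 h, or -2.03 to -1.77 (SE 0.07) and -1.42 to -1.05 (SE 0.06) on the log2 scale.

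UGT2B11 had 1573, 1327 and 1230 normalised counts in vehicle at 24 h, and 51.5, 74.3 (median) and 108 in the treated libraries. Its treated means were therefore 4.8% to 7.77% of vehicle. At 72 h vehicle had 1078, 1172 and 1041, and the treated libraries 140, 209 (median) and 289, so that the treated means were 14.5% to 23.0% of vehicle. The log2 differences were -4.37 to -3.67 at 24 h (SE 0.15) and -2.77 to -2.12 at 72 h (SE 0.12), the lowest of the 5 genes at 72 h in each treatment. The long non-coding RNA on its opposite strand, ENSG00000250696, was at no more than 4.42 normalised counts in any library.

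UGT2B28, which is known to act on steroids, had 290, 280 and 215 normalised counts in vehicle at 24 h. The treated libraries had 5.43, 17.3 (median) and 21.7, that is, treated means of 3.48% to 7.29% of vehicle. At 72 h vehicle had 200.5, 241 and 190 and the treated libraries 40.0, 54.3 (median) and 103, with means at 20.6% to 42.7% of vehicle. The log2 differences were -4.76 to -3.70 at 24 h (SE 0.35) and -2.25 to -1.22 at 72 h (SE 0.19). With a pseudocount of 8 in place of 1 all 5 were smaller at 24 h, from -3.99 (ribociclib) to -3.31 (atirmociclib at 1 µM), where the values with 1 were -4.76 and -3.70.

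UGT2B10, an enzyme of amine conjugation, had 277, 241 and 234 normalised counts in vehicle at 24 h and 154, 179 and 184 at 72 h. The treated libraries had 12.2, 34.1 (median) and 63.5 at 24 h and 28.0, 52.2 (median) and 93.1 at 72 h. The treated means were 7.87% to 16.4% of vehicle at 24 h and 23.8% to 53.7% at 72 h. The widest spread among the 5 genes between treatments at 72 h was thus in UGT2B10, from -2.08 to -0.89 on the log2 scale (SE 0.21). At 24 h its differences were -3.66 to -2.67 (SE 0.33).

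UGT2B7, the broad liver enzyme, was close to undetected. Vehicle libraries had 4.44, 7.09 and 3.64 normalised counts at 24 h and 5.09, 4.42 and 1.57 at 72 h. At 24 h, 14 of the 15 treated libraries were at or under 3 normalised counts, the level that a few reads give, and at 72 h 13 of 15 were. UGT2B7 did not pass the filter of 10 normalised counts in 3 libraries, so it was not fitted and no fold change is given.

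For each of the other 5 genes, 15 of 15 treated libraries were below all 3 vehicle libraries of the same harvest. The same held for 10.7% of all genes at 24 h and 11.3% at 72 h. In the vehicle groups, 72 h against 24 h gave -0.54 (SE 0.28) for UGT2B10, -0.32 (SE 0.13) for UGT2B11, -0.02 (SE 0.09) for UGT2B15, 0.20 (SE 0.06) for UGT2B17 and -0.31 (SE 0.28) for UGT2B28 on the log2 scale. The vehicle libraries of the harvests did not overlap for UGT2B10, UGT2B11 and UGT2B17, and overlapped for UGT2B15 and UGT2B28. The share of all genes that separated between the vehicle harvests was not counted.

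**Figure D2:**
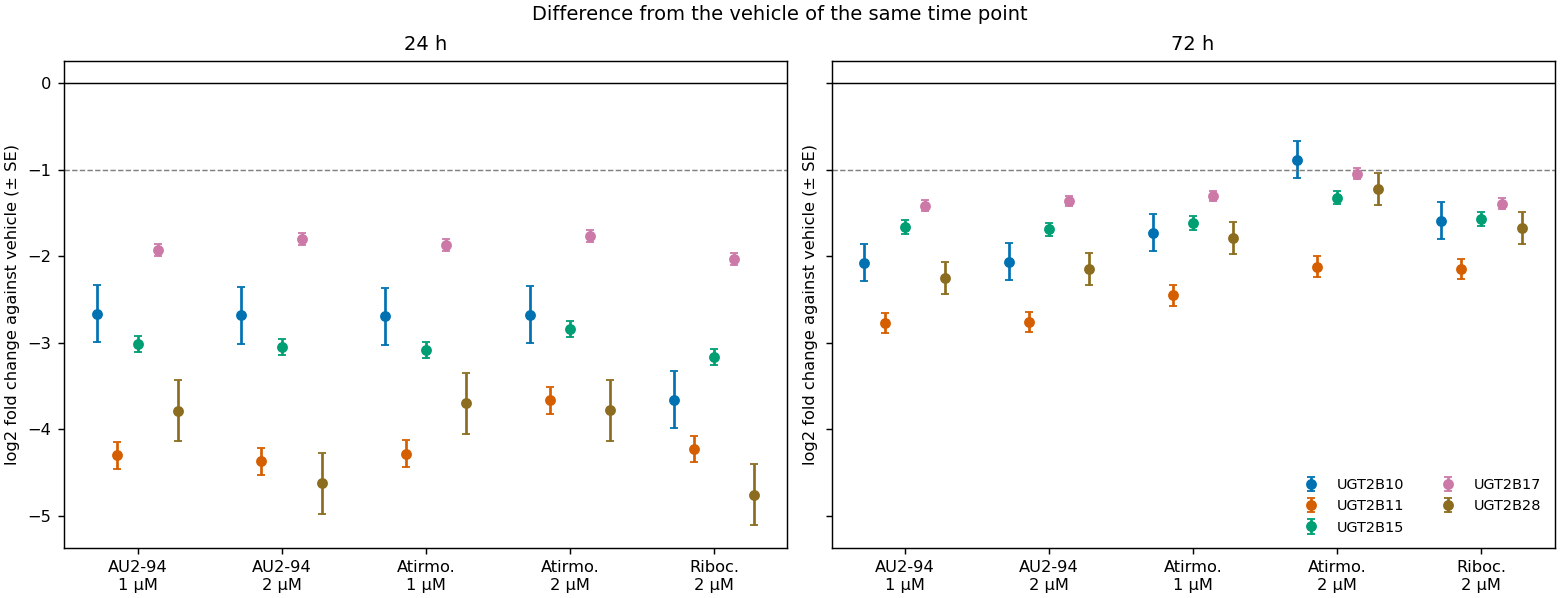
Log2 fold change against the vehicle of the same harvest (y axis, ± SE from the limma fit) for 5 UGT2B genes in the 5 treatments (x axis), at 24 h on the left and 72 h on the right; the dashed line is at -1. At 24 h UGT2B17 lies highest, between -2.03 and -1.77, and at 72 h only UGT2B10 under atirmociclib at 2 µM lies above the line.

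The make-up of the family differed between vehicle and treated cells because the members differed unequally. UGT2B17 made up 40.5% ± 1.85 of the summed normalised count of the 6 genes in vehicle at 24 h (SD, n = 3) and 62.5% to 66.3% in the treated groups. UGT2B11 made up 16.2% ± 1.33 in vehicle and 4.46% to 6.66% in the treated groups. At 72 h the share of UGT2B17 was 46.2% ± 0.702 in vehicle and 51.4% to 55.9% in treated groups, and that of UGT2B11 12.8% ± 0.739 and 5.88% to 8.46%. The ratio of UGT2B17 to UGT2B15, in normalised counts and not per length, was 1.09 ± 0.0627 in vehicle and 2.29 to 2.6 in the treated groups at 24 h. At 72 h it was 1.27 ± 0.0178 in vehicle and 1.44 to 1.60 in the treated groups. The summed count of the 6 genes was 8479 ± 514 in vehicle at 24 h, and the treated groups were at 15.2% (ribociclib) to 19.0% (atirmociclib at 2 µM) of it. At 72 h vehicle was at 8562 ± 528 and the treated groups at 31.7% (AU2-94 at 1 µM) to 42.0% (atirmociclib at 2 µM).

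**Figure D3:**
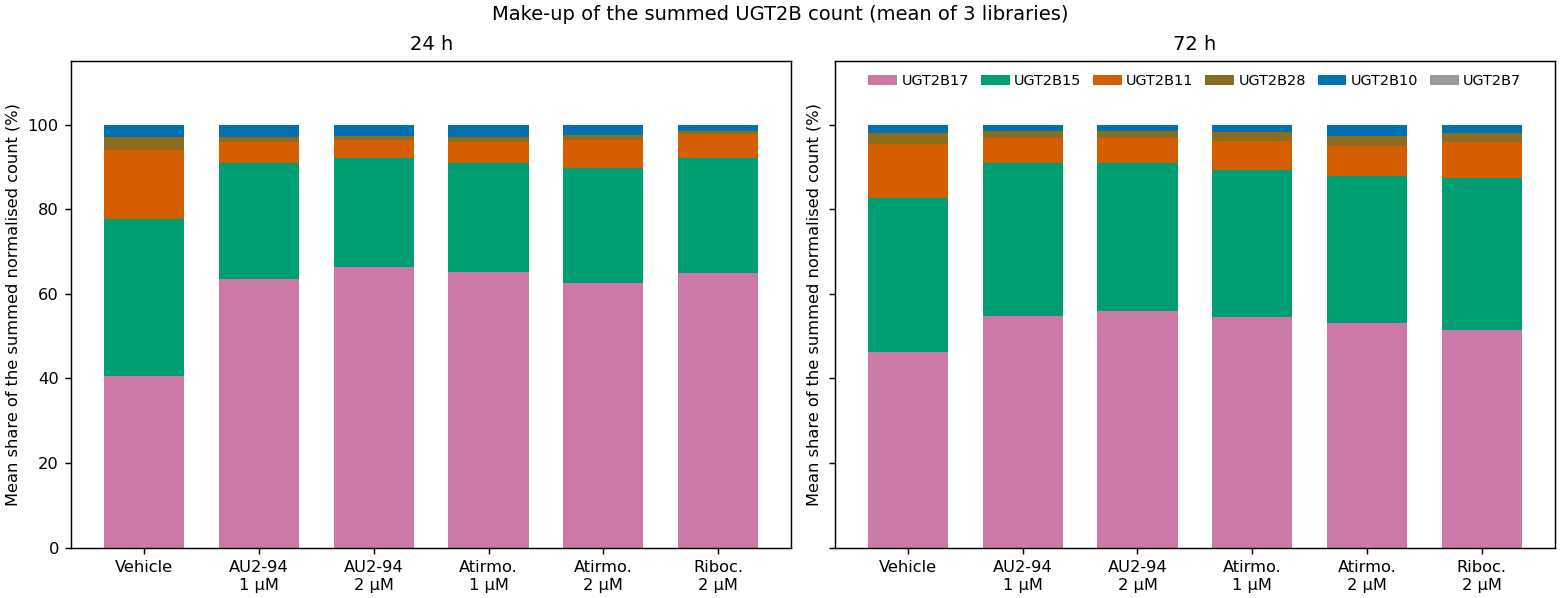
Mean share of the summed normalised count of the 6 UGT2B genes (y axis, percent) held by each gene (colours) in each group (x axis), for 24 h on the left and 72 h on the right, with 3 libraries a group. UGT2B17 holds 40.5% in vehicle and 62.5% to 66.3% in the treated groups at 24 h, and UGT2B7 is too small to be seen.

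In treated cells most UGT2B values were higher at 72 h than at 24 h. This comparison uses no vehicle library, though it shares the treated libraries with the values that chose the members. Choosing genes for low treated values favours a rise from the harvest where they were lowest. The p-values below do not allow for that choice. In limma fits over 16850 genes with Benjamini-Hochberg adjustment, 22 of 25 values (5 genes, 5 treatments) were higher at 72 h with an adjusted p of at most 0.05. In 17 of them the log2 difference was also at least 1. The share of all genes higher at this adjusted p was 15.1% for AU2-94 at 1 µM, 14.3% for AU2-94 at 2 µM, 16.4% for atirmociclib at 1 µM, 17% for atirmociclib at 2 µM and 15.4% for ribociclib. With the fold limit added these shares were 2.91%, 3.1%, 4.01%, 3.89% and 3.53%. In the 22 values, all 3 libraries at 72 h were above all 3 at 24 h. The share of all genes that separated in this way was not counted.

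UGT2B15 rose in each treatment, by 1.33 (SE 0.09) under AU2-94 at 1 µM to 1.58 (SE 0.09) under ribociclib on the log2 scale. Under ribociclib, UGT2B15 had 311, 376 and 369 normalised counts at 24 h and 1173, 919 and 1069 at 72 h, which did not overlap (adjusted p = 5.07e-15, limma). UGT2B11 rose by 1.21 to 1.76 (SE 0.13). Under ribociclib, UGT2B11 had 79.0, 77.4 and 61.1 normalised counts at 24 h and 245, 250 and 245 at 72 h (adjusted p = 1.12e-11, limma). These genes thus rose in all 5 treatments by more than the spread between replicates, in the direction that the choice of members favours.

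UGT2B17 also rose in all 5 treatments, but by less, from 0.65 under AU2-94 at 2 µM to 0.93 under atirmociclib at 2 µM (SE 0.06). Under atirmociclib at 2 µM, UGT2B17 had 1026, 941 and 1047 normalised counts at 24 h and 2007, 1870 and 1858 at 72 h (adjusted p = 1.03e-12, limma). UGT2B28 rose by 1.23 under AU2-94 at 1 µM to 2.78 under ribociclib (SE 0.28). Under ribociclib, UGT2B28 had 8.73, 13.1 and 5.44 normalised counts at 24 h and 54.3, 70.6 and 71.2 at 72 h (adjusted p = 3.07e-09, limma). Its size at 24 h rests on few reads.

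UGT2B10 passed in 2 of the 5 treatments. It rose under ribociclib by 1.53 (SE 0.28, adjusted p = 0.000105, limma), from 25.3, 21.7 and 12.2 normalised counts to 60.4, 51.0 and 58.3. Under atirmociclib at 2 µM it rose by 1.25 (SE 0.28, adjusted p = 0.000935, limma), from 41.1, 34.1 and 39.8 to 93.1, 91.6 and 92.8. Under AU2-94 the difference was 0.05 at 1 µM (95% interval -0.53 to 0.63) and 0.08 at 2 µM (-0.50 to 0.66). Under AU2-94 at 2 µM, for example, UGT2B10 had 27.5, 34.1 and 59.1 normalised counts at 24 h and 50.7, 33.8 and 38.3 at 72 h, which overlapped. Under atirmociclib at 1 µM the difference was 0.42 (-0.16 to 1.00). These 3 values missed the threshold, and their intervals include a rise of up to 1.00 under atirmociclib at 1 µM.

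**Figure D4:**
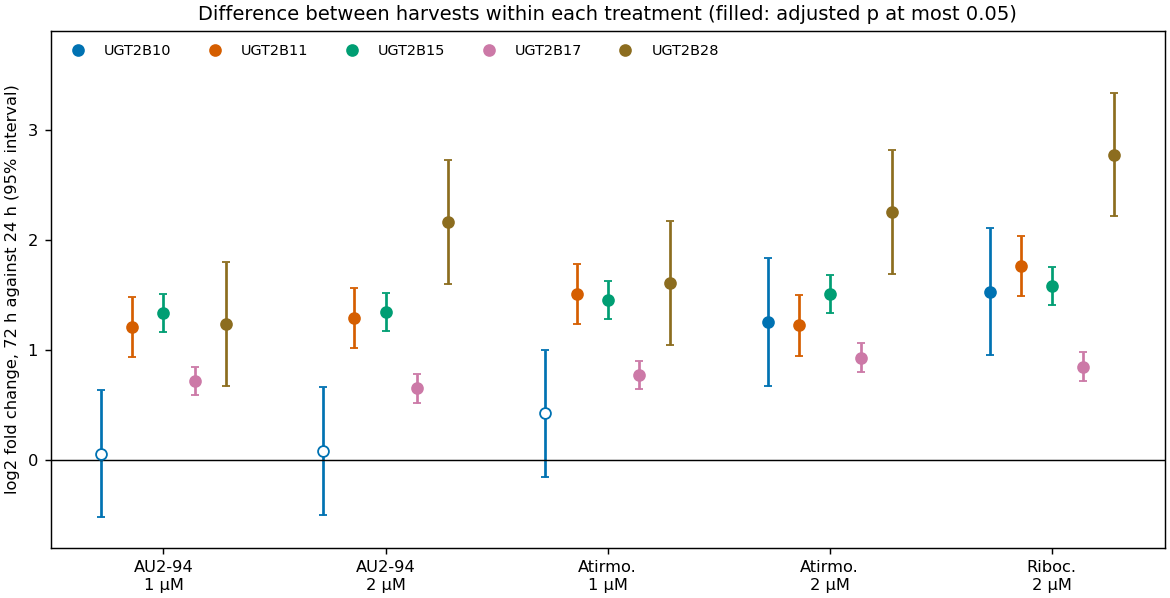
Log2 fold change at 72 h against 24 h (y axis, with 95% intervals) for 5 UGT2B genes within each treatment (x axis); filled points have an adjusted p of at most 0.05. UGT2B11, UGT2B15, UGT2B17 and UGT2B28 are filled in every treatment, and UGT2B10 only under atirmociclib at 2 µM and ribociclib.

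The agents differed most clearly at 2 µM after 72 h, when all 5 UGT2B genes were higher under atirmociclib than under AU2-94. At this comparison 19.8% of all genes passed the adjusted p, and 2.12% passed it with an absolute log2 difference of at least 1. UGT2B10 had 93.1, 91.6 and 92.8 normalised counts under atirmociclib and 50.7, 33.8 and 38.3 under AU2-94, a difference of 1.18 (95% interval 0.73 to 1.63, adjusted p = 0.000591, limma). UGT2B10 was the member with a difference of at least 1. UGT2B28 had 103, 75.5 and 90.7 under atirmociclib and 47.8, 40.0 and 52.0 under AU2-94, a difference of 0.93 (0.54 to 1.32, adjusted p = 0.00141, limma). The libraries did not overlap for either gene, a description with no share of all genes beside it.

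UGT2B11 had 289, 218 and 250 normalised counts under atirmociclib at 2 µM and 174, 140 and 171 under AU2-94 at 72 h, which differed by 0.64 (0.39 to 0.89, adjusted p = 0.000805, limma). UGT2B15 had 1208, 1189 and 1343 against 967, 942 and 984, a difference of 0.37 (0.20 to 0.53, adjusted p = 0.00232, limma). UGT2B17 had 2007, 1870 and 1858 against 1490, 1579 and 1543, a difference of 0.31 (0.18 to 0.44, adjusted p = 0.00125, limma). For the androgen-conjugating pair the agents thus differed by less than for UGT2B10 and UGT2B28. All 3 atirmociclib libraries were above all 3 AU2-94 libraries in each gene, which was not counted over all genes. The difference between genes was not tested. With equal library totals the median over all genes was -0.10 for this comparison, against -0.00036 in the main fit. Over the alternative settings the smallest difference was 0.26 for UGT2B15 and 0.21 for UGT2B17, and both genes passed the adjusted p in each.

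Between atirmociclib and AU2-94 at 24 h and 2 µM, 9.44% of all genes passed the adjusted p. An unadjusted p under 0.05, not counted over all genes, was seen for 3 of the 5 members. UGT2B11 alone of the 5 passed the adjusted p. It had 107, 106 and 108 normalised counts under atirmociclib and 76.6, 70.0 and 51.5 under AU2-94, a difference of 0.71 (0.38 to 1.03, adjusted p = 0.00741, limma). With only these groups in the fit the adjusted p was 0.0792. The other 4 genes differed by 0.00 to 0.84, with intervals reaching from -0.69 to 1.58. At 1 µM no member passed in limma at 24 h or 72 h, against 4.64% and 8.24% of all genes. An unadjusted p under 0.05, not counted over all genes, was seen for 0 and 2 members. The intervals over the 5 genes at 1 µM reached from -0.72 to 0.83 in the 24 h libraries and from -0.12 to 0.85 in those of 72 h.

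Ribociclib at 2 µM differed from AU2-94 in UGT2B11 at 72 h. UGT2B11 had 245, 250 and 245 normalised counts under ribociclib and 174, 140 and 171 under AU2-94, a difference of 0.61 (0.36 to 0.86, adjusted p = 0.00813, limma). The share of all genes that passed was 3.34%. Without AU2-94 replicate 2 the difference was 0.51 with an adjusted p of 0.0508, and with only these groups in the fit the adjusted p was 0.0746. The other 4 genes differed by -0.03 to 0.48. At 24 h none of the 5 passed the adjusted p, against 0.0372% of all genes. An unadjusted p under 0.05 was seen for 2 members, without a count over all genes. UGT2B10, for example, had 25.3, 21.7 and 12.2 normalised counts under ribociclib and 27.5, 34.1 and 59.1 under AU2-94, a difference of -0.98 (-1.67 to -0.28, adjusted p = 0.228, limma).

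Ribociclib was below atirmociclib at 2 µM in several members. At 72 h UGT2B17 had 1595, 1377 and 1549 normalised counts under ribociclib and 2007, 1870 and 1858 under atirmociclib, a difference of -0.35 (-0.47 to -0.22, adjusted p = 0.00115, limma). UGT2B10 had 60.4, 51.0 and 58.3 against 93.1, 91.6 and 92.8, a difference of -0.70 (-1.15 to -0.26, adjusted p = 0.045, limma). That call for UGT2B10 was lost with the replicate number as a block (adjusted p = 0.057), in 4 of 10 alternative settings in all, and without any 1 of its 6 libraries (adjusted p 0.0722 to 0.127). UGT2B11 differed by -0.02 (-0.27 to 0.23). The share of all genes that passed was 9.18%.

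At 24 h ribociclib was below atirmociclib in UGT2B11, with 79.0, 77.4 and 61.1 against 107, 106 and 108 normalised counts, a difference of -0.56 (-0.89 to -0.24, adjusted p = 0.0438, limma). It was also lower in UGT2B17, with 869, 877 and 768 against 1026, 941 and 1047, a difference of -0.26 (-0.41 to -0.12, adjusted p = 0.0342, limma). The share of all genes that passed was 4.64%. Libraries did not overlap in either gene, which was not counted over all genes. The call for UGT2B11 was lost in 3 of 10 alternative settings and without any 1 of its 6 libraries (adjusted p 0.061 to 0.184). The call for UGT2B17 was lost in 5 of 10 settings, among them the replicate block (0.0511), and without atirmociclib replicate 1 (0.109) or 3 (0.124) or ribociclib replicate 1 (0.0531) or 3 (0.165).

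Few differences between doses passed the test. Atirmociclib at 2 µM against 1 µM for 72 h gave 2 of 5 members past the adjusted p, against 2.19% of all genes. UGT2B10 had 93.1, 91.6 and 92.8 normalised counts at 2 µM and 43.99, 57.9 and 52.2 at 1 µM, a difference of 0.85 (0.40 to 1.29, adjusted p = 0.045, limma). UGT2B17 had 2007, 1870 and 1858 against 1518, 1631 and 1650, a difference of 0.26 (0.13 to 0.39, adjusted p = 0.0358, limma). Both transcripts were thus higher at the higher dose. Both calls were lost with the replicate block (adjusted p = 0.061 and 0.0555), and in 5 and 6 of 10 alternative settings in all. Both were also lost without any 1 of the 6 libraries compared, with an adjusted p of 0.0735 to 0.172 for UGT2B10 and 0.0582 to 0.179 for UGT2B17.

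For the other dose comparisons no member passed in limma, and 2 members for atirmociclib at 24 h, 1 for AU2-94 at 24 h and 0 for AU2-94 at 72 h had an unadjusted p under 0.05. Past the adjusted p were 0.0124% of all genes for atirmociclib and 0.409% for AU2-94 at 24 h. For AU2-94 at 72 h this share was 0%. No such share was counted for the unadjusted p. UGT2B11 under atirmociclib at 24 h had 107, 106 and 108 normalised counts at 2 µM and 75.0, 68.5 and 65.1 at 1 µM, which did not overlap, a difference of 0.62 (0.29 to 0.94, adjusted p = 0.237, limma). Under AU2-94 at 72 h the 5 differences were -0.03 to 0.10, with intervals within -0.44 to 0.49. Under AU2-94 at 24 h they were -0.84 to 0.12, with intervals of -1.58 to 0.68, the widest being that of UGT2B28.

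**Figure D5:**
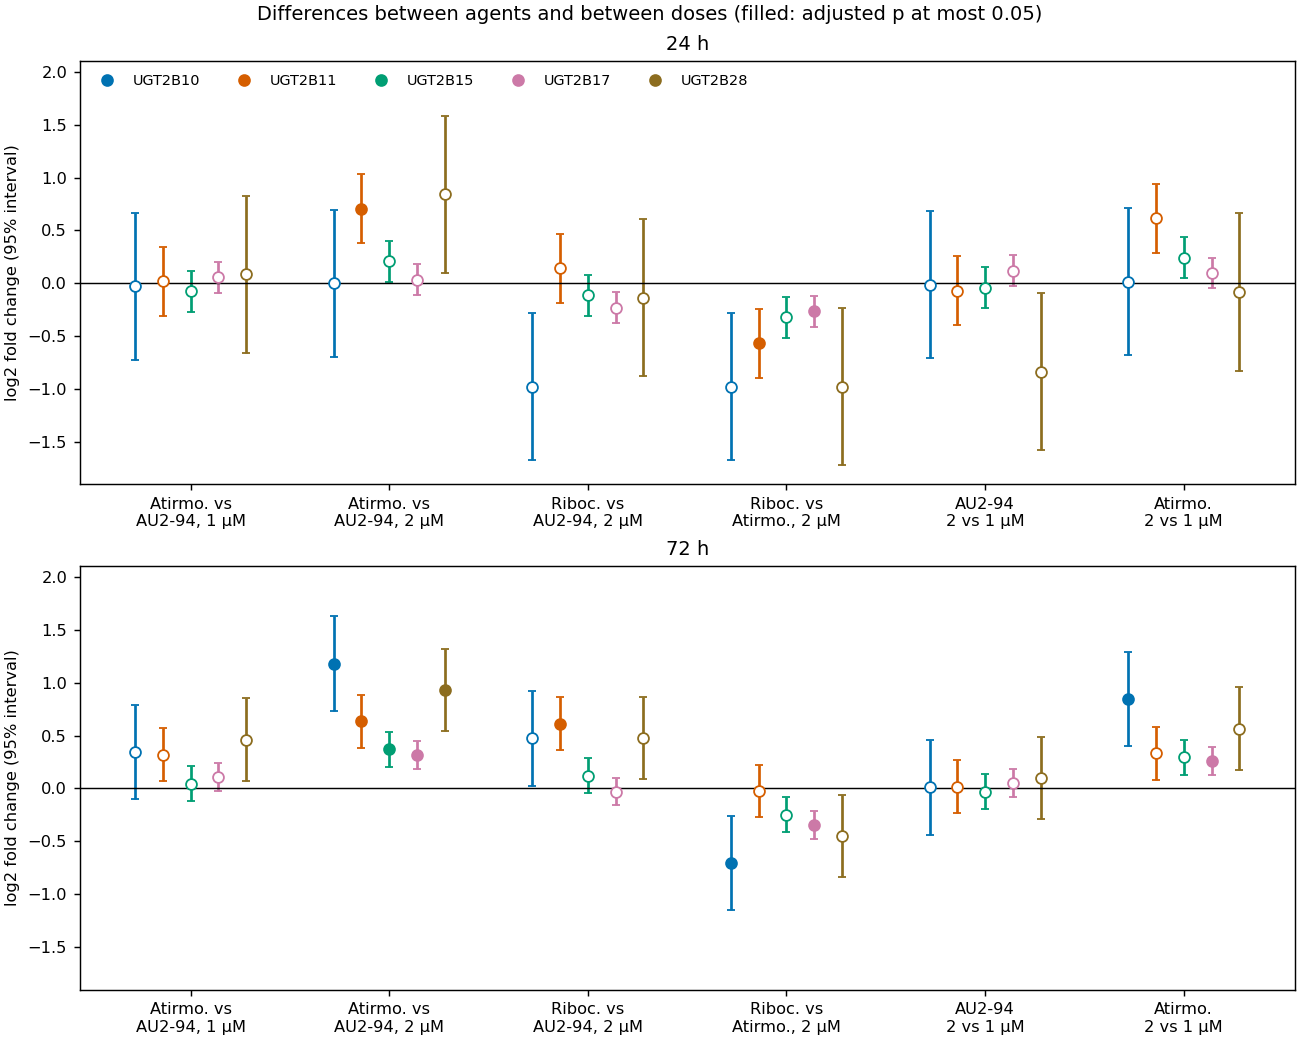
Log2 fold change (y axis, with 95% intervals) of 5 UGT2B genes between agents and between doses (x axis), at 24 h above and 72 h below; filled points have an adjusted p of at most 0.05. All 5 genes are filled and above 0 for atirmociclib against AU2-94 at 2 µM and 72 h, and none for the doses of AU2-94.

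Whether these agent and dose differences changed between 24 h and 72 h was tested as an interaction, and none of the 30 values passed the adjusted p in limma. At an unadjusted p under 0.05 there were 8, and the share of all genes at that threshold was not counted. The largest was UGT2B10 for ribociclib against AU2-94, with 1.45 and an interval up to 2.27, and the smallest adjusted p of the 30 was 0.0753, for UGT2B17 and atirmociclib against AU2-94 at 2 µM. The shares of all genes that passed were 1.91% for atirmociclib against AU2-94 at 1 µM and 4.52% at 2 µM, 0.184% for ribociclib against AU2-94, 1.19% for ribociclib against atirmociclib, 0.38% for the dose of AU2-94 and 0.136% for that of atirmociclib. A difference between agents at 72 h that was not called at 24 h is therefore not shown to have changed with time.

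The other genes of the pathway were tested against vehicle with the same fits. In 7 lists written around glucuronidation and androgen handling, genes were counted when they passed the adjusted p with an absolute log2 difference of at least 1 in all 5 treatments of a harvest. Of all genes, 1.72% were lower and 0.57% higher by this count at 24 h, and 0.355% lower and 1.34% higher at 72 h. The median of the mean log2 difference over all genes was 0.00 at both harvests. No share of all genes was counted for the adjusted p alone against vehicle, or for calls in fewer than 5 treatments.

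Of 16 other UGT genes, 3 could be tested at 24 h and 2 at 72 h. UGT8, which makes galactosylceramide and not glucuronides, was lower in all 5 treatments at 24 h, with 219 ± 35.6 normalised counts in vehicle (SD, n = 3) and group means of 12.6 to 28.9 in treated cells (highest adjusted p = 7.21e-06, limma). At 72 h it was 388 ± 7.27 in vehicle and 124 to 238 in treated groups, past both thresholds in 3 of 5 treatments. UGT2B4, a liver bile acid enzyme of the same family, had 17.2 ± 6.12 normalised counts in vehicle at 24 h and 1.41 to 5.42 in treated groups, called in 2 of 5 treatments. At 72 h it was 11.5 ± 2.65 in vehicle and 2.23 to 5.01 in treated groups, too low to be fitted. The list medians of the 2 harvests cover different genes and cannot be compared. At 24 h the median of 3 genes was -2.28, which is the mean of UGT2B4 itself and has the same limit. At 72 h the median of 2 genes was 0.20, with UGT8 at a mean of -1.24 and the other gene above vehicle.

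For the enzymes that supply the sugar donor, none of 8 genes tested for UDP-glucuronic acid supply and turnover was called in all 5 treatments at either harvest, and the list medians were 0.07 and -0.04. UGDH, the enzyme that makes UDP-glucuronic acid, had 2215 ± 126 normalised counts in vehicle at 24 h and 1577 to 2057 in treated groups, with log2 differences of -0.49 to -0.11 that passed the adjusted p in 2 of 5 treatments. At 72 h UGDH had 1944 ± 195 in vehicle and 1279 to 1616 in treated groups, with differences of -0.60 to -0.27 that passed in 4 of 5.

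Of 31 genes of androgen synthesis, interconversion and oxidation, 16 could be tested at each harvest, and the list medians were -0.07 at 24 h and -0.0036 at 72 h. CYP3A5, a steroid hydroxylase, was called higher in all 5 treatments at 72 h, with 39.2 ± 2.86 normalised counts in vehicle and 84.7 to 156 in treated groups (highest adjusted p = 2.92e-05, limma). CYP11A1, which starts steroid synthesis from cholesterol, had 11.1 ± 1.60 in vehicle and 23.5 to 30.6 in treated groups at 72 h, called in 4 of 5. HSD17B6, which oxidises androstanediol back to dihydrotestosterone, had 27.0 ± 7.37 in vehicle at 24 h and 5.73 to 9.27 in treated groups, also called in 4 of 5. At 72 h HSD17B6 had 38.8 ± 8.59 in vehicle and 5.39 to 25.4 in treated groups, again called in 4 of 5. HSD17B6 became the second gene called lower in all 5 treatments at 24 h with equal library totals, with a pseudocount of 8, or with only the compared groups in the fit.

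For steroid sulphation and desulphation, none of 5 tested genes was called in all 5 treatments, with list medians of 0.16 and 0.20. Of the transporters of steroid conjugates, 7 could be tested at 24 h and 8 at 72 h, with list medians of 0.07 and 0.45. ABCC6, an efflux transporter, was called higher in all 5 treatments at 24 h, with 24.4 ± 8.07 normalised counts in vehicle and 54.1 to 84.5 in treated groups. The call of ABCC6 in all 5 was lost without vehicle replicate 1 or without atirmociclib 2 µM replicate 3, which left 1 gene higher in place of 2 over the 7 lists.

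Of the transcription factors linked to UGT2B genes, 10 of 18 could be tested, none was called in all 5 treatments, and the list medians were -0.05 and -0.07. FOXA1, a forkhead pioneer factor of the prostate, differed from vehicle by -0.10 to 0.17 (24 h) or -0.17 to 0.07 (72 h) and passed in 1 treatment of each harvest. VDR, the vitamin D receptor, had 719 ± 76.7 in vehicle and 324 to 389 in treated groups at 24 h, lower in all 5 by the adjusted p and called in 3. At 72 h VDR had 807 ± 77.8 in vehicle and 404 to 596 in treated groups, again lower in all 5 by the adjusted p but called in 1.

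The androgen-induced list was counted in the same way. All 19 genes of this list were tested, and the list median was 0.55 at 24 h and 0.49 at 72 h. At 24 h 1 gene, NDRG1, was called higher in all 5 treatments, and at 72 h 5 genes were, KLK2, KLK3, TMPRSS2, NDRG1 and TRPM8. None was called lower in all 5. TMPRSS2, the prostate serine protease, had 5807 ± 217 normalised counts in vehicle and 11051 to 14741 in treated groups at 24 h, and 4613 ± 472 and 13400 to 20036 at 72 h. KLK3, which encodes prostate-specific antigen, had 23555 ± 1099 and 29126 to 32246 at 24 h, and 20525 ± 632 and 45215 to 53365 at 72 h. NDRG1 had 949 ± 131 in vehicle and 4137 to 4924 in treated groups at 72 h, and TRPM8, a cation channel, 329 ± 54.9 and 1282 to 1392. The lists were written with earlier results of these data known, and NDRG1 is also known to respond to hypoxia.

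Across the 36 libraries the members' log2 values were much alike, with Pearson's r of 0.983 for UGT2B15 with UGT2B17, 0.972 for UGT2B11 with UGT2B15 and 0.948 for UGT2B11 with UGT2B28. UGT2B10 was least like the others, with r of 0.861 to 0.895. These are descriptions, since the libraries fall into vehicle and treated groups and near-identical stretches can share reads. Of 12470 other genes with a mean of at least 50 normalised counts, those most like UGT2B15 were H2BC21, a histone H2B gene (r = 0.960), TUBB, a beta tubulin (r = 0.960), and EXPH5 (r = 0.954). UGT2B17 was most like the amino acid transporter gene SLC7A5 (r = 0.964), TUBB (r = 0.945) and EXPH5 (r = 0.942). UGT2B11 was most like TUBB (r = 0.935), H2BC21 (r = 0.931) and SLC7A5 (r = 0.931), and UGT2B28 like TUBB (r = 0.925), H2BC21 (r = 0.913) and the condensin gene NCAPD3 (r = 0.912). UGT2B10 was most like the chaperone gene HSP90AA1 (r = 0.858), the thiamine transporter gene SLC19A2 (r = 0.849) and NOP56 (r = 0.845).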

How the data were processed

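RNA from LNCaP cells was sequenced as total RNA libraries in 100-base pairs. The authors used nf-core/rnaseq, STAR 2.6.1d and DESeq2 with GRCh38, and deposited their normalised counts (a signal, not whole reads). The read counter, the annotation release and the strand setting are not given in the sources used here. In each library 5.98% to 45.3% of values under 20 were whole multiples of 1 step (within 0.01 steps), so no count model was used. Depth in reads is therefore unknown, and precision rests on 3 libraries per group. Values at or under 3 normalised counts were taken as the floor, which covers counting error only.

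Groups came from the sample labels. Genes with at least 10 normalised counts in at least 3 fitted libraries were fitted with limma 3.58.1 in R 4.3.3 (lmFit, eBayes with trend) on log2(normalised count + 1), with Benjamini-Hochberg adjustment over all genes of a contrast. The 6 groups of a harvest were fitted together, and all 12 for contrasts between harvests. A difference was called at an adjusted p of at most 0.05 with a log2 fold change of 1 or more in size, and the adjusted p alone is given beside it. Fold changes of low genes are understated by the added 1. Levels per kilobase used the union of annotated exons.

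The members and the lists were chosen with earlier results of these data known. Members' values against vehicle, and vehicle between harvests, are described without a test. Where libraries of groups are said not to overlap, the share of all genes was counted only for treated against vehicle. For an unadjusted p no share of all genes was counted. Named genes were the members; per list, up to 3 genes with the largest mean change among those called in at least 3 of 5 treatments; FOXA1, VDR, UGDH, UGT2B4, KLK3 and TMPRSS2; and the 3 genes most like each member. Some genes and motifs of the rule and lists are not reported here. Genes KLK2, KRT14, KRT5, TP63, COL1A1, COL1A2, PECAM1 and PTPRC were named to explain a count or a sum. Replicate numbers are batches in the labels and so pair libraries across groups. As a check, the deviations of same-numbered libraries from their groups correlated with a mean r of 0.0018 (24 h) and -0.0022 (72 h) over 45 pairs each. The fit has no block, and the block is an alternative. The fit was tested on simulated data. Alternatives covered the pseudocount, the filter, the normalisation, the libraries fitted, the trend, the replicate block, each library left out and the transcript length. Sequences came from GRCh38 with GENCODE release 44 and from RefSeq.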

Additional observations from a re-analysis of the deposited data

How the results depend on the processing

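Against vehicle, 49 of 50 values were at or below -1 under each of 10 alternative settings and with each of 36 libraries left out in turn, except that without the filter UGT2B7 entered and the count was 57 of 60. Of these settings, only the pseudocounts, quantile normalisation and equal totals could move these values. The filter, trend, block and fitted groups leave a difference of group means unchanged, and median-of-ratios factors gave back the deposited normalisation. Of the time differences, 22 of 25 passed the adjusted p throughout and 17 were called, or 16 with a pseudocount of 8. No interaction passed in any of these. For agents, 1 difference was called and quantile normalisation gave 2, the second being UGT2B28 for atirmociclib against AU2-94 at 2 µM and 72 h (1.08); leaving out a library gave 1 to 2, the 2 being without AU2-94 2 µM replicate 1 at 24 h, AU2-94 2 µM replicate 3 at 72 h or atirmociclib 2 µM replicate 2 at 72 h. By the adjusted p alone there were 11, and 6 with only the compared groups in the fit (39 values could be fitted). For doses, 2 passed the adjusted p alone; this was 0 without the filter, with equal totals, with only the compared groups, without the trend and with the replicate block, 1 with quantile normalisation, and 0 to 3 with a library left out (0 without any 1 of the atirmociclib libraries at 72 h, 3 without ribociclib replicate 2 at 72 h). With a mean of at least 50 as the filter it was 3. Of the 35 tested differences past the adjusted p, 4 were lost with the replicate block, as given beside each, and it changed no other of these calls. Over the pathway lists, genes lower in all 5 treatments at 24 h numbered 1, and 2 with a pseudocount of 8, equal totals or only the compared groups (1 to 2 with a library left out, 2 without atirmociclib 1 µM replicate 2 or 3). Genes higher numbered 2 at 24 h, 1 with a pseudocount of 8 and 1 to 3 with a library left out (3 without vehicle replicate 2), and 6 at 72 h, 5 to 8 with a library left out. These list alternatives and the counts by adjusted p alone were chosen after seeing the data. The cause of each move was not tested. Against vehicle, 5 of the 50 values moved by more than the replicate spread with a pseudocount of 8. The low counts of UGT2B7, UGT2B28 and UGT2B10 limit their precision most, and per kilobase only UGT2B17 moved by more than 1 SD when the longest transcript set the length.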
